A study of Bos taurus with 12 samples.

Results

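Branched-chain amino acid oxidation begins with 10 genes that are described here in calf liver: BCAT2, BCKDHA, BCKDHB, DBT, BCKDK, PPM1K, IVD, MCCC1, MCCC2 and HIBCH. They were taken by symbol from the 30336 gene IDs that were counted, and a table of bovine RefSeq names matched each of them to 1 Entrez gene. The 12 libraries came from puncture biopsies of the liver of Holstein heifer calves at 4 d of age. The dams of 6 calves (CON) ate a basal close-up diet without added Met for the last 28 d before calving. The dams of the other 6 calves (MET) ate the same diet plus ethyl cellulose rumen-protected Met (Mepron) over the same 28 d. All calves received colostrum, milk replacer and starter in the same way after birth, so that the maternal diet was the planned difference between the groups.

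Leucine, isoleucine and valine are unusual among the essential amino acids because their nitrogen is removed mostly outside the liver. The branched-chain aminotransferases make the keto acids, of which BCAT2 is the mitochondrial form and BCAT1 the cytosolic form. The branched-chain keto acid dehydrogenase complex then removes the carboxyl group in an irreversible step that liver carries out readily. This complex consists of a decarboxylase of alpha and beta subunits (BCKDHA and BCKDHB), a lipoyl-bearing core (DBT) and a dehydrogenase that it shares with other complexes (DLD). The kinase BCKDK phosphorylates and inactivates it, and the phosphatase PPM1K reverses this. Beyond the complex the 3 amino acids part ways: IVD and the biotin enzyme made of MCCC1 and MCCC2 act on the leucine carbon, and HIBCH releases 3-hydroxyisobutyrate from the valine carbon.

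The libraries held between 8277789 and 10397604 counted reads. A floor of 3 reads equals 0.289 to 0.362 CPM, counting error only. Between CON replicates 1 and 4 the counts differed barely beyond counting noise (chi-square per gene 1.31), and likewise between MET replicates 1 and 3 (1.23), against 23.3 to 122 in the 64 other pairs of libraries. Either pair entered as a single sample, which left 5 CON and 5 MET samples. The labels do not say that these libraries share an animal. The first index of the libraries differed by diet, and index and diet cannot be told apart. All 8 hepatocyte markers were counted, and their summed expression was 96420 to 144100 CPM in CON and 79970 to 115900 CPM in MET. None of the 7 skeletal muscle markers had more than 3 reads in any library. With 10 samples, all 8 hepatocyte markers had a log2 fold change below 0 in MET (median −0.29) and all 6 Kupffer cell and macrophage markers a log2 fold change above 0 (median 0.27), the latter with a summed expression of 965 to 1378 CPM in CON and 1127 to 1536 CPM in MET. At FDR at most 0.10, 1 hepatocyte marker was lower and 1 macrophage marker higher over the 12 libraries, where 4.41% of all genes passed. All 5 stellate cell and fibroblast markers (median −0.36) and all 3 cholangiocyte markers tested (median −0.38) had a log2 fold change below 0, and both lymphoid markers tested one above 0 (median 0.64). Of 5 endothelial markers 3 were below 0 and 2 above (median −0.20), with summed expression of 231 to 384 CPM in CON and 208 to 331 CPM in MET. Over the 12 libraries TTR of the hepatocyte list and KRT7 of the cholangiocyte list lay above 0 (0.07 and 0.0021), as did ALAS2, the erythroid marker tested (−0.43 with 10 samples and 0.16 with 12 libraries). Summed expression was 561 to 819 CPM in CON and 412 to 677 CPM in MET for the stellate markers, and 41.5 to 68.1 CPM and 23.7 to 61.6 CPM for the cholangiocyte markers. The lymphoid markers summed to 4.23 to 13.5 CPM in CON and 4.69 to 15.2 CPM in MET. The part of this cell makeup in the results was not tested, and in bulk RNA fewer cells of a type and less RNA per cell cannot be told apart.

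All 10 genes were expressed above the filter on low counts and all were tested. None passed the test for a difference between the diets. With 5 samples per diet, 0 of 10 reached the FDR limit of 0.10 (edgeR, quasi-likelihood F-test, adjusted by Benjamini-Hochberg over 13242 genes), where 0% of all genes passed. Over the 12 libraries, which count the near-identical libraries separately, again 0 of 10 passed, where 4.41% of the 13212 genes tested did. At an unadjusted p of at most 0.05, 0 of 10 passed with 10 samples, against 16.3% of all genes, and 0 of 10 with 12 libraries, against 20.5%. DESeq2 also called 0 of 10, against 4.94% of the genes to which it gave an adjusted p. The diets overlapped in all 10, whereas in 3.72% of all genes they did not. Log2 fold changes from CON to MET lay between −0.20 for DBT and 0.08 for HIBCH, with 5 above 0 and 5 below. Their median was −0.0095, and that of all genes tested was −0.0028. The median size of the change without its sign was 0.066 in the 10 genes and 0.20 in all genes tested. These genes were not matched for level, and the difference in size was not tested.

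**Figure D1:**
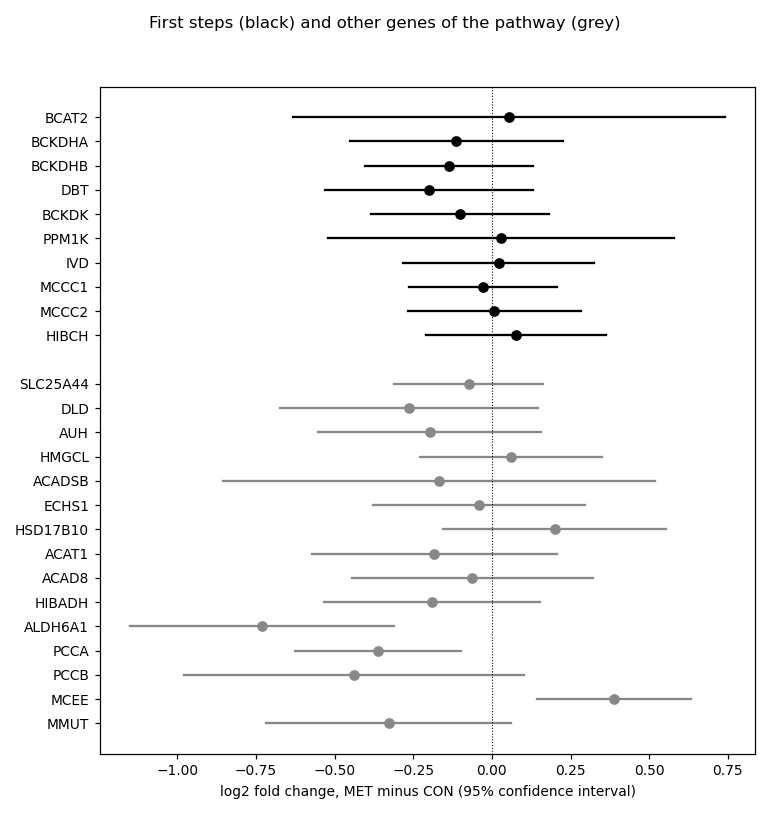
Log2 fold change from CON to MET (x axis) with its 95% confidence interval from edgeR, for the 10 first-step genes (black) and 15 other genes of the pathway (grey), over 5 CON and 5 MET samples. The intervals of all 10 black genes cross 0, and among the grey genes those of ALDH6A1, PCCA and MCEE do not.

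What these samples can say about the size of a change is set by the confidence intervals. The 95% intervals of the 10 log2 fold changes all lay between −0.63 and 0.74, and so they held no 2-fold change in either direction. The interval was widest for BCAT2 (0.65-fold to 1.67-fold) and next widest for PPM1K (0.70-fold to 1.49-fold). It was narrowest for MCCC1, at 0.83-fold to 1.16-fold. Smaller changes in either direction lay inside them.

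Levels differed far more between the genes than between the diets. Expressed per length as TPM (the share of transcripts, corrected for exonic length), which allows genes to be compared, the mean over the 10 samples was highest for IVD at 87.7 ± 6.07 TPM (SD, n = 10). BCKDHB followed at 82.3 ± 9.12 TPM (SD, n = 10) and HIBCH at 81.3 ± 11.4 TPM (SD, n = 10). The ranges of these 3 genes overlapped, so that their order is not set apart from the spread between calves. BCKDHA came next at 41.7 ± 7.79 TPM (SD, n = 10), and its highest sample (53.3 TPM) lay below the lowest sample of HIBCH (65.4 TPM). MCCC1 at 34.0 TPM, PPM1K at 31.8 TPM, DBT at 31.8 TPM and BCKDK at 22.6 TPM overlapped their neighbours in that order. MCCC2 had 15.4 ± 2.07 TPM (SD, n = 10), from 10.5 to 18.1 TPM. BCAT2 was lowest with 1.64 ± 0.555 TPM (SD, n = 10), and its highest sample (2.39 TPM) was below the lowest sample of every other gene. These values use the exonic length in the count annotation, which was 1269 bases for BCKDHB and 5416 bases for PPM1K, and an incomplete gene model would shift a level but not the comparison of diets.

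**Figure D2:**
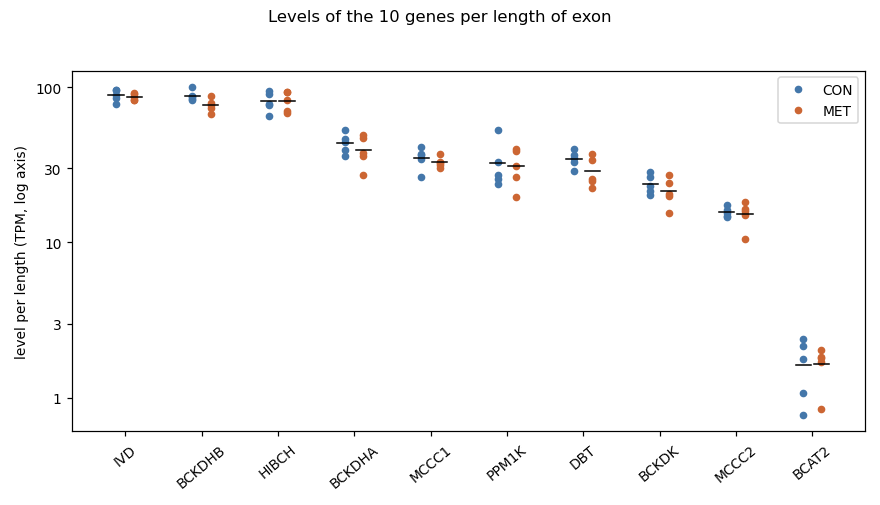
Level per length of exon in TPM (log axis) of the 10 genes, ordered by their mean, with a point for each of the 5 CON and 5 MET samples and a black line at each diet's mean. IVD, BCKDHB and HIBCH lie between 65.4 and 100.3 TPM, the next 6 genes lie lower, and BCAT2 stays below 2.39 TPM.

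Transcripts of the aminotransferases were scarce in these livers. BCAT2 (Entrez gene 281643, chromosome 18, 55862538 to 55876549, minus strand, UMD 3.1.1) had between 9 and 28 reads per library. Its level ranked at percentile 12.9 of all genes tested. In CON samples BCAT2 expression was 2.40 CPM (replicates 1 and 4), 1.13, 1.26, 2.71 and 2.91 CPM (replicates 2, 3, 5 and 6). In MET samples it was 2.16 CPM (replicates 1 and 3), 2.15, 2.53, 1.23 and 2.89 CPM (replicates 2, 4, 5 and 6). Low samples near 1.2 CPM occurred under both diets, and the groups overlapped fully. The means were 2.08 ± 0.830 CPM in CON and 2.19 ± 0.617 CPM in MET (SD, n = 5 each), which gives 0.06 on the log2 scale (SE 0.32, adjusted p = 0.951 in edgeR). Between the near-identical libraries of a pair, BCAT2 differed by 19.4% and 20.7%, more than any of the other 9 genes. A gene on the opposite strand shares 62 exonic bases with BCAT2, and the counting was stranded. BCAT1, the cytosolic form, had between 0 and 3 reads in each library, which is at or under the floor, and it was not tested. SLC25A44, the mitochondrial carrier of branched-chain amino acids, had 29.1 ± 4.34 TPM (SD, n = 10).

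**Figure D3:**
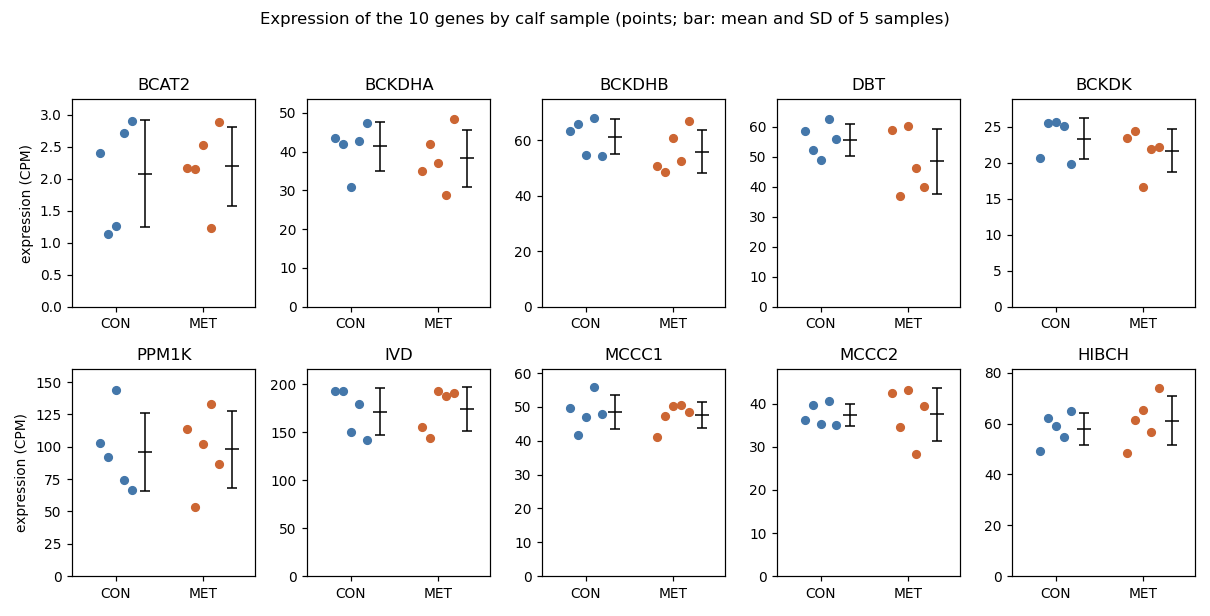
Expression in CPM (y axes from 0) of each of the 10 genes in the 5 CON (blue) and 5 MET (orange) samples, with the mean and SD of each diet as a black bar. The diets overlap in every panel, and PPM1K and BCAT2 spread most within a diet.

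For both decarboxylase subunits the difference between diets was within the spread between calves. BCKDHA (Entrez gene 282149, chromosome 18, 50819365 to 50838369) carries the serine that BCKDK phosphorylates. The CON samples had 43.6 CPM (replicates 1 and 4), 42.1, 30.8, 42.7 and 47.5 CPM (replicates 2, 3, 5 and 6) of BCKDHA. The MET samples had 35.0 CPM (replicates 1 and 3), 42.0, 37.1, 28.8 and 48.6 CPM (replicates 2, 4, 5 and 6). Both the lowest and the highest BCKDHA value belonged to MET calves. Its log2 fold change was −0.11 (SE 0.16, adjusted p = 0.754 in edgeR). BCKDHB (Entrez gene 282150, chromosome 9, 19963215 to 20335161) encodes the beta subunit, which completes the decarboxylase. For BCKDHB, CON samples had 63.4 CPM (replicates 1 and 4), 66.0, 54.8, 68.3 and 54.5 CPM (replicates 2, 3, 5 and 6). MET samples had 50.7 CPM (replicates 1 and 3), 48.6, 60.8, 52.5 and 67.0 CPM (replicates 2, 4, 5 and 6). Of the 5 MET values 3 lay below every CON value and the other 2 among them. The log2 fold change of BCKDHB was −0.14 (SE 0.12, adjusted p = 0.611 in edgeR; two-sided exact permutation p = 0.230 over the 10 samples).

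The MET samples of DBT spread more widely than the CON samples, a difference that was not tested. This gene (Entrez gene 280759, chromosome 3, 43189859 to 43230455) encodes the core on which the complex is built. DBT expression was 58.5 CPM (replicates 1 and 4), 52.4, 48.8, 62.8 and 56.0 CPM (replicates 2, 3, 5 and 6) in CON samples. It was 59.0 CPM (replicates 1 and 3), 36.8, 60.4, 46.3 and 39.8 CPM (replicates 2, 4, 5 and 6) in MET samples. MET replicates 2, 5 and 6 were below every CON sample, while the other 2 MET samples were above the CON median. The means were 55.7 ± 5.37 CPM in CON and 48.5 ± 10.8 CPM in MET (SD, n = 5 each). With a log2 fold change of −0.20 (SE 0.15, adjusted p = 0.541 in edgeR), the difference was within the spread between calves (two-sided exact permutation p = 0.198). This log2 fold change was the lowest of the 10 genes with 10 samples, but with the 12 libraries that of BCKDHB was lower (−0.17 against −0.16), and without MET replicate 2 DBT had −0.12 and BCKDHA −0.15. DLD, the shared dehydrogenase of the complex, averaged 63.8 ± 13.5 CPM in CON and 53.1 ± 11.9 CPM in MET (SD, n = 5 each; adjusted p = 0.511 in edgeR).

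The kinase and the phosphatase of the complex differed in their spread among calves, and neither passed the test between diets. BCKDK (Entrez gene 505005, chromosome 25, 27468636 to 27472844) had 20.6 CPM (replicates 1 and 4), 25.5, 25.6, 25.1 and 19.8 CPM (replicates 2, 3, 5 and 6) in CON. It had 23.4 CPM (replicates 1 and 3), 24.4, 16.6, 21.9 and 22.2 CPM (replicates 2, 4, 5 and 6) in MET. All 5 MET values lay below the CON median, but only 1 of them, MET replicate 4, lay below the lowest CON sample. The log2 fold change of BCKDK was −0.10 (SE 0.13, adjusted p = 0.733 in edgeR).

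PPM1K (Entrez gene 540329, chromosome 6, 37876470 to 37899686) was the most variable of the 9 well-expressed genes. In CON it had 102.7 CPM (replicates 1 and 4), 92.1, 143.8, 74.0 and 66.8 CPM (replicates 2, 3, 5 and 6), a 2.15-fold range. In MET it had 114 CPM (replicates 1 and 3), 53.6, 101.9, 133.3 and 87.0 CPM (replicates 2, 4, 5 and 6), a 2.49-fold range. High and low calves thus occurred under both diets, and the log2 fold change of PPM1K was 0.03 (SE 0.25, adjusted p = 0.968 in edgeR). The coefficient of variation was 31.6% in CON and 30.7% in MET, against medians of 14.9% and 16.8% among the 1950 genes with a mean of 50 to 200 CPM. Of those genes, 136 (6.97%) varied at least as much as PPM1K in both diets. Only PPM1K, the most variable of the 9 genes, was set against such a band, so its place there is descriptive. The near-identical libraries differed in PPM1K by only 1.51% (CON pair) and 7.38% (MET pair).

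Ratios between partner genes within a sample do not depend on how libraries are scaled. Per length, BCKDK transcripts numbered between 0.493 and 1.38 for each PPM1K transcript, with geometric means of 0.761 in CON and 0.696 in MET. MET replicate 2 had the highest kinase-to-phosphatase ratio and MET replicates 4 and 5 the lowest, so that MET calves bounded the range on both sides. The log2 ratio differed by −0.13 between the diets (two-sided exact permutation p = 0.706, adjusted p = 0.944 over 4 ratios). BCKDHB exceeded BCKDHA in all 10 samples, from 1.55 to 2.46 times per length. The difference of its log2 ratio between diets was −0.02 (two-sided exact permutation p = 0.921, adjusted p = 0.944).

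For DBT against BCKDHA the ratio was 0.688 to 0.926 in CON and 0.478 to 0.983 in MET. MET replicates 2 and 6, at 0.512 and 0.478, had fewer DBT transcripts per BCKDHA transcript than any other sample, and the other 3 MET samples, at 0.940 to 0.983, had more than any CON sample. The standard deviation of this log2 ratio was 0.17 in CON and 0.52 in MET, a difference in spread that was not tested. Its means differed by −0.10 (two-sided exact permutation p = 0.627, adjusted p = 0.944 over 4 ratios). For the leucine carboxylase, MCCC2 transcripts numbered 0.326 to 0.601 per MCCC1 transcript, and both extremes were MET samples. The log2 ratio of MCCC2 to MCCC1 differed by 0.02 between diets (two-sided exact permutation p = 0.944, adjusted p = 0.944). The smallest p that 5 against 5 samples allow is 0.00794.

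**Figure D4:**
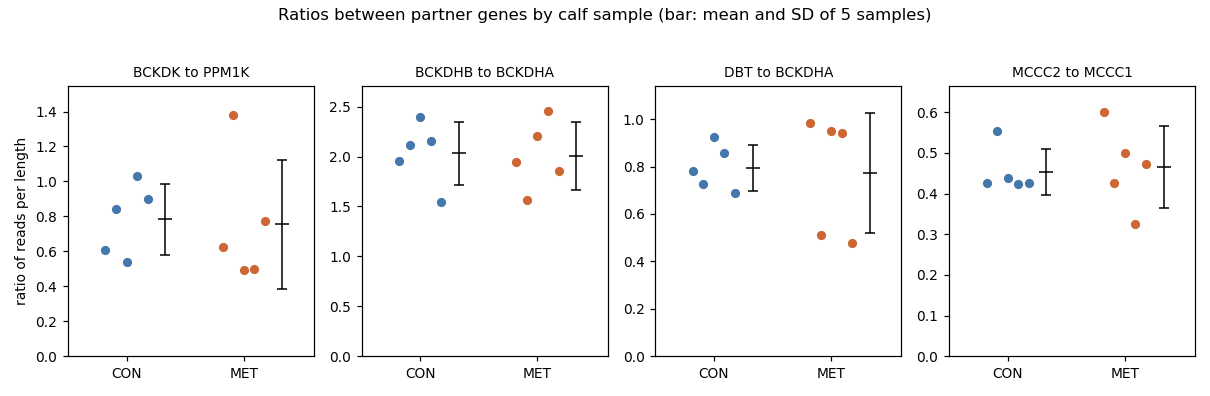
Ratio of reads per length between partner genes (y axes from 0) in the 5 CON (blue) and 5 MET (orange) samples, with the mean and SD of each diet as a black bar. MET samples bound the range of BCKDK to PPM1K (0.493 to 1.38) and split into 2 low and 3 high samples for DBT to BCKDHA.

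The 3 genes of the leucine branch had log2 fold changes close to 0. IVD (Entrez gene 510440, chromosome 10, 36140588 to 36152634), isovaleryl-CoA dehydrogenase, averaged 171 ± 24.1 CPM in CON and 174 ± 23.0 CPM in MET (SD, n = 5 each). The IVD samples ranged from 141.5 to 193.0 CPM in CON and from 143.6 to 193.2 CPM in MET, so that the ranges nearly coincided. MCCC1 (Entrez gene 513504, chromosome 1, 84574855 to 84633406), the biotin-bearing subunit of methylcrotonyl-CoA carboxylase, averaged 48.5 ± 5.13 CPM in CON and 47.6 ± 3.86 CPM in MET (SD, n = 5 each). Its range in MET (41.2 to 50.7 CPM) lay almost wholly inside that in CON (41.7 to 56.0 CPM). MCCC2 (Entrez gene 783065, chromosome 20, 9840983 to 9919904), the carboxyl-transferring subunit, had 36.1 CPM (replicates 1 and 4), 39.7, 35.3, 40.7 and 35.1 CPM (replicates 2, 3, 5 and 6) in CON. In MET the MCCC2 values were 42.5 CPM (replicates 1 and 3), 34.6, 43.2, 28.3 and 39.4 CPM (replicates 2, 4, 5 and 6). The MET samples again lay on both sides of the CON samples, with a coefficient of variation of 16.5% against 6.99% in CON. In BCAT2 it was the other way (28.2% in MET, 39.9% in CON), and PPM1K, IVD and MCCC1 also varied less in MET. The rest of the 10 genes varied more in MET. Over all genes tested the median was 19.7% in MET and 19% in CON. No difference in spread was tested. Log2 fold changes were 0.02 for IVD, −0.03 for MCCC1 and 0.0082 for MCCC2, with SE of 0.14, 0.11 and 0.13 and adjusted p of 0.956, 0.927 and 0.984 in edgeR.

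For HIBCH the difference between diets was also within the spread between calves. This valine enzyme (Entrez gene 535883, chromosome 2, 5878677 to 6032782) had 49.1 CPM (replicates 1 and 4), 62.4, 59.3, 54.6 and 64.9 CPM (replicates 2, 3, 5 and 6) in CON. It had 48.3 CPM (replicates 1 and 3), 61.5, 65.3, 56.7 and 74.2 CPM (replicates 2, 4, 5 and 6) in MET. MET replicate 6 was the highest sample, and the sample of MET replicates 1 and 3 the lowest. The log2 fold change of HIBCH was 0.08 (SE 0.13, adjusted p = 0.810 in edgeR), and −0.0027 without MET replicate 6.

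No sample was highest or lowest in more than 3 of the 10 genes. CON replicate 5 had the highest value of 3 of the 10 genes (BCKDHB, DBT and MCCC1), and MET replicate 2 the lowest value of 3 (BCKDHB, DBT and PPM1K). MET replicate 4 was highest in IVD and MCCC2 and lowest in BCKDK, and CON replicate 3 was highest in both BCKDK and PPM1K. The median log2 distance of the 10 genes from their means ran from −0.12 in MET replicate 5 to 0.14 in CON replicate 5.

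The 16 other genes of the pathway comprised BCAT1, SLC25A44 and DLD, described above, and 13 genes of later steps. Of the 16, 15 were tested, 12 with a log2 fold change below 0 and 3 above, with a median of −0.18. The median size of their change without its sign was 0.20, as it was in all genes tested. None of the 15 had FDR at most 0.10 with 10 samples (background 0%), and for 3 the unadjusted p was 0.05 or less (background 16.3%). Over the 12 libraries 2 were lower and 1 was higher in MET at FDR at most 0.10 (background 4.41%). ALDH6A1, methylmalonate semialdehyde dehydrogenase, acts on the valine carbon downstream of HIBCH. ALDH6A1 had 48.7 CPM (replicates 1 and 4), 40.2, 56.2, 36.6 and 51.1 CPM (replicates 2, 3, 5 and 6) in CON. It had 31.8 CPM (replicates 1 and 3), 22.6, 36.4, 31.8 and 17.8 CPM (replicates 2, 4, 5 and 6) in MET. Every MET sample was below every CON sample, although CON replicate 5 and MET replicate 4 nearly met. The diets did not overlap in 2 of the 15 genes tested, against 3.72% of all genes. The log2 fold change of ALDH6A1 was −0.73 with 10 samples (SE 0.19, adjusted p = 0.175) and −0.71 with 12 libraries (adjusted p = 0.0674), both in edgeR.

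The 2 other genes past the threshold over 12 libraries belong to the propionyl-CoA branch, where valine and isoleucine carbon enters the citric acid cycle. PCCA, the biotin-bearing subunit of propionyl-CoA carboxylase, averaged 93.2 ± 9.40 CPM in CON and 72.5 ± 9.19 CPM in MET (SD, n = 5 each), with a log2 fold change of −0.36 (adjusted p = 0.201 with 10 samples and 0.0826 with 12 libraries, edgeR). MCEE, methylmalonyl-CoA epimerase, went the other way, from 35.8 ± 2.94 CPM in CON to 46.9 ± 5.87 CPM in MET (SD, n = 5 each), without overlap. Its log2 fold change was 0.39 (adjusted p = 0.180 with 10 samples and 0.0653 with 12 libraries, edgeR). Once a trend on gene length was removed, that of MCEE was 0.24 (adjusted p = 0.393 in edgeR). DESeq2 with 10 samples gave adjusted p = 0.0354 for ALDH6A1, 0.0999 for PCCA and 0.0600 for MCEE. With the replicate block over 12 libraries, edgeR gave adjusted p = 0.150, 0.173 and 0.169 for the same genes. PCCB and MMUT, which encode the partner subunit and the mutase, had log2 fold changes of −0.44 and −0.33, with adjusted p = 0.403 and 0.386 in edgeR with 10 samples. For PCCB, MET replicate 6 had 205.3 CPM and the other 4 MET samples 69.5 to 100.3 CPM, and without that library the log2 fold change was −0.77 (adjusted p = 0.254 in edgeR). For MMUT it was −0.21 without CON replicate 2, which at 425.8 CPM was the highest sample (adjusted p = 0.572 in edgeR), and −0.48 without MET replicate 6, the highest MET sample at 359.8 CPM (adjusted p = 0.262 in edgeR). The difference between these genes and the 10 first-step genes was not itself tested.

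The pyruvate and oxoglutarate dehydrogenase complexes are built like the branched-chain complex and share DLD with it. Per length, their decarboxylase subunits PDHA1 (44.0 ± 9.95 TPM) and OGDH (42.4 ± 8.44 TPM; SD, n = 10 each) were near BCKDHA at 41.7 TPM. PDHB stood at 128.5 ± 27.7 TPM (SD, n = 10), above PDHA1 per length. The annotated exonic length was 4162 bases for PDHA1 and 1500 bases for PDHB. In CPM, PDHA1 and PDHB were close, at 104.7 and 106.8 CPM in CON and 98.45 and 108.4 CPM in MET. The order of these subunits thus rests on the annotated lengths. Among the kinases, the mean level of PDK4 was 38.9 ± 15.3 TPM in CON and 22.7 ± 9.10 TPM in MET (SD, n = 5 each). That of PDK2 was 25.6 ± 7.81 and 23.2 ± 7.24 TPM and that of BCKDK 23.8 ± 3.50 and 21.4 ± 4.52 TPM, so that these 3 kinases overlapped. The means of PDK1 at 7.98 ± 2.44 TPM and PDK3 at 6.66 ± 1.19 TPM (SD, n = 10 each) were lower. Of the 13 genes of these complexes tested, 0 had FDR at most 0.10 with 10 samples (background 0%) and 1 was lower over the 12 libraries (background 4.41%). This was PDK1, with a log2 fold change of −0.49 (adjusted p = 0.213 with 10 samples, 0.0914 with 12 libraries, edgeR). PDK4, a kinase that rises with fasting, had the lowest log2 fold change at −0.72 (adjusted p = 0.230) and PDK3 the highest at 0.28 (adjusted p = 0.400 in edgeR). The branched-chain kinase BCKDK, at −0.10, lay between them.

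Among 12 genes of aromatic amino acid catabolism, 0 had FDR at most 0.10 with 10 samples (background 0%). AFMID, kynurenine formamidase, had the highest log2 fold change of these genes at 0.15 (adjusted p = 0.713 in edgeR), nearly tied with GSTZ1 at 0.14, and leaving out libraries moved it from 0.0649 (without CON replicate 6) to 0.28 (without MET replicate 4). At an unadjusted p of at most 0.05 with 10 samples, 5 of these 12 genes and 3 of the 13 genes of the sister complexes passed, against 0 of the 10 first-step genes and 16.3% of all genes.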

How the data were processed

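Liver RNA of 12 calves was sequenced as stranded libraries of polyadenylated RNA, read from one end on 1 lane. Per the labels and file headers, the authors trimmed the reads with Trimmomatic 0.33, aligned them with STAR 2.5.3a to UMD 3.1.1 and deposited raw counts per gene from featureCounts of Subread 1.5.2, stranded, without reads that matched several places or genes. Reads of a near-identical copy would therefore be missing and not split.

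Libraries were grouped by their titles. Counts of CON replicates 1 and 4, and of MET replicates 1 and 3, were summed for tests, and their CPM and TPM were averaged. CPM used TMM factors (edgeR 4.0.16, R 4.3.3). Genes passing edgeR's default filter (minimum count 10, minimum total 15) were compared with its quasi-likelihood test on diet alone, with Benjamini-Hochberg adjustment and the study's threshold of 0.10. For single genes (log2 CPM, prior count 2) and ratios, all 252 arrangements of the samples were enumerated in a two-sided exact permutation test. The steps were tested on simulated data. P-values measure the spread between these samples.

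Alternatives were the 12 libraries, RLE factors, library size alone, DESeq2 1.42.0, no filter, a trend on gene length (span 0.5), a replicate block, and each library or near-identical pair left out. No correction for GC content was made, since no genome was used here. The genes, lists and tests were chosen with earlier results of these data known. Beside the 10 genes, the text names those of each list past the threshold in the 10-sample or 12-library test and its lowest and highest log2 fold change. One gene that this rule names is not reported here. DLD, BCAT1, SLC25A44, PCCB, MMUT, PDHA1, PDHB, OGDH, PDK2, GSTZ1, TTR, KRT7 and ALAS2 were named after their values were seen. Figures were drawn with matplotlib 3.10.9.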

Additional observations from a re-analysis of the deposited data

Results flagged for a closer look

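The log2 count ratio of MCCC2 to MCCC1 in CON replicate 2 was −0.071, while the other 4 CON samples lay between −0.46 and −0.41, a gap of 0.881 of the whole range that passed Dixon's limit for an outlying sample. CON replicate 2 had the lowest MCCC1 value of the CON samples (41.7 CPM) and the next to highest MCCC2 value (39.7 CPM). Chance flags about 1 in 20 groups, and 28 groups were examined.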

How the results depend on the processing

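No alternative brought any of the 10 genes past an FDR of 0.10. The lowest adjusted p of a first-step gene in any of them was 0.375, for BCKDHB with the gene length trend removed. The number of genes called among all genes was 0 with 10 samples, 583 with the 12 libraries, 601 with DESeq2, 6 with the replicate block over 12 libraries and 0 to 39 when a library or near-identical pair was left out, 39 being without MET replicates 1 and 3. RLE factors, library size alone, no filter and the length trend also gave 0. Signs of changes near 0 turned: IVD was −0.0342 with the 12 libraries (−0.0329 in the permutation difference) and −0.0330 with the block, MCCC2 was 0.0327 instead of −0.0073 in the permutation difference with the 12 libraries, and HIBCH was −0.0093 with the length trend removed. Leaving out libraries gave −0.0910 to 0.19 for BCAT2, −0.21 to −0.0286 for BCKDHA, −0.21 to −0.0890 for BCKDHB, −0.29 to −0.12 for DBT, −0.15 to −0.0199 for BCKDK, −0.0027 to 0.15 for HIBCH, −0.0397 to 0.0838 for IVD, −0.0777 to 0.0299 for MCCC1, −0.0448 to 0.0927 for MCCC2 and −0.11 to 0.22 for PPM1K. The log2 ratios ranged from −0.12 to 0.0665 for BCKDHB to BCKDHA, −0.21 to 0.0502 for DBT to BCKDHA, −0.0840 to 0.14 for MCCC2 to MCCC1 and −0.38 to −0.0050 for BCKDK to PPM1K. The cause of these turns was not tested. Same-numbered libraries correlated between −0.181 and 0.149 in their deviations from the diet means, so the numbers were not taken as pairs. BCAT2 had at most 28 reads in a library.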
